A study of Homo sapiens with 6 samples.

Results

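CD37, CLC and SOX8 are genes of other cell lineages whose signals were higher in methotrexate-resistant HT29 colon cancer cells. CD53, LGALS14 and SOX10 are a relative of each from the same gene family. The first 3 genes were chosen because earlier results on these same arrays placed them among large gains, so their differences are given as a description without a test. The relatives were added as checks of lineage, although LGALS14 is a gene of the placenta and not of the blood cells in which CLC is abundant. All probe sets annotated to the 6 genes were taken, which made 10 probe sets of 54613 that are not controls, and 6 of the 19775 genes named by a probe set of their own.

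Total RNA from 3 samples of sensitive HT29 cells and 3 of resistant HT29 cells had been hybridized to Affymetrix HG U133 PLUS 2.0 arrays. HT29 is an established human colon adenocarcinoma line. The resistant cells were obtained by stepwise exposure to methotrexate, an inhibitor of folate metabolism, and resisted 10 µM of the drug. Sensitive cells were kept in Ham's F12 with whole fetal bovine serum, whereas resistant cells were kept in a selective medium that lacks hypoxanthine, thymidine and glycine, supplemented with dialyzed serum. Medium and resistance therefore cannot be told apart, and the resistant samples represent 1 selected line. No source states that replicates were separate cultures, so their spread, and every p-value resting on it, may be technical.

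Tetraspanins are small membrane proteins that gather receptors and integrins into membrane domains. CD37 is a tetraspanin mainly of mature B cells, and CD53 is one found on nearly all leukocytes. CLC encodes galectin-10, the protein of the Charcot-Leyden crystals of eosinophils and basophils, whereas LGALS14 encodes a galectin of the placenta from the same gene cluster on chromosome 19. SOX8, SOX9 and SOX10 form the SOXE group of transcription factors, which act in neural crest, glia, gonad and cartilage, and SOX9 also acts in intestinal crypts.

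Signals were divided by the median of their own array, so that a scaled signal of 1 equals the array median. The array medians were 14.2, 15 and 15.4 in sensitive replicates 1 to 3 and 13.3, 16 and 16.9 in resistant replicates 1 to 3. No detection calls were used, so no firm level can be read from signals far under the array median, and a fold change against them is uncertain. The control probe sets for the 3′ and 5′ ends of ACTB, a measure of RNA quality, gave 3′/5′ ratios of 1.12 to 1.17 in sensitive and 1.17 to 1.29 in resistant arrays without overlap. The same ratio for GAPDH was 1.00 to 1.01 and 0.980 to 1.04. The part of RNA quality in the results was not tested.

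Colon epithelial markers, which check the labelled cell type, were measured at 16 genes with a probe set, and of 10 tested 7 were lower (70%) and 1 was higher (10%) in the limma test described below, against 22.5% and 12.4% of all genes tested. Their summed scaled signal was 2070 to 2282 in sensitive and 1601 to 1801 in resistant arrays. The scaled signals of KRT20, an intestinal keratin, were 251, 230 and 254 in sensitive arrays and 183, 127 and 182 in resistant arrays, and those of VIL1, the microvillus protein villin, were 46.5, 51.2 and 53.5 and then 38.5, 36.9 and 32.6. Both were bright in all arrays and lower in resistant cells, with log2 fold changes of -0.60 (adjusted p = 6.9e-05) and -0.49 (adjusted p = 0.0081) in limma. The call of VIL1 was lost without sensitive replicate 2 or 3 or resistant replicate 3. TFF3, a trefoil factor of goblet cells, showed the largest change among the tested genes of the list, from 6.62, 6.12 and 5.53 to 1.77, 1.87 and 1.14 (log2 fold change -1.97, adjusted p = 6.4e-08 in limma). CEACAM5, an adhesion molecule, was lower (-0.89, adjusted p = 0.0081) and CDH17, an intestinal cadherin, was higher (1.20, adjusted p = 0.027). The first call was lost in 5 of 16 alternatives, among them without resistant replicate 2, and the second in 8, among them without sensitive replicate 2 or resistant replicate 1 or 2. CDX2, the intestinal homeobox factor, stayed under the array median in all 6 arrays, at 0.0375 to 0.580.

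CLC is shown first, because the RefSeq sequences upstream of CLC and LGALS14 align over most of their length. The signals of CLC separated the groups, and those of LGALS14 did not. The 250 bases before the start of each gene (GRCh38.p14, read 5′ to 3′ on the strand of the gene) are printed below. The CLC stretch is chr19:39738030-39738279 on the minus strand and the LGALS14 stretch is chr19:39704231-39704480 on the plus strand. Capitals mark the 7 runs of at least 8 bases that are identical in the alignment of both.
CLC: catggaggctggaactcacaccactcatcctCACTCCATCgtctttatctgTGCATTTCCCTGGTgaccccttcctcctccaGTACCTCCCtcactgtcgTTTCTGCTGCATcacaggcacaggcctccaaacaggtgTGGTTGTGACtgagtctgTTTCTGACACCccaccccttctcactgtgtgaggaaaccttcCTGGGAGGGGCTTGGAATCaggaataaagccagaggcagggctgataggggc
LGALS14: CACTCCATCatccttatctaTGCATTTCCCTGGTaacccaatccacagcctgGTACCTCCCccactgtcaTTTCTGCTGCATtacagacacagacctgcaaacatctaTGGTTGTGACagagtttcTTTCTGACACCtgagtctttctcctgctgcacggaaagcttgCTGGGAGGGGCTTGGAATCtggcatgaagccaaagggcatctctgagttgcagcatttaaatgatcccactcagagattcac
Over 218 aligned bases, 176 were identical (80.7%). The longest shared run had 19 bases, and the 7 runs covered 84 bases of each sequence. The stretch of LGALS13, another placental galectin of the cluster, was 77.9% identical to that of CLC and 86.3% identical to that of LGALS14, and the stretch of LGALS16 was 79.6% and 87.1% identical to them.

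Both stretches were poor in CpG dinucleotides. CLC had 2 and LGALS14 had 1, whereas the median over 35116 RefSeq promoters was 11, and 14.7% and 6.06% of promoters had fewer. Their GC contents were 55.2% and 48.8%, against a median of 58%. The letters GATAA, searched on both strands as the core of the sites that GATA factors bind, occurred in the stretches of CLC, LGALS14, LGALS13 and LGALS16 and in 20.4% of all promoters. TATAAA occurred in none of these 4 stretches and in 10.7% of all promoters. CD53 had 2 promoter entries with 3 and 2 CpG dinucleotides, neither of which held GATAA. Of the 6 members, 3 were matched in the promoter table, namely CD53, CLC and LGALS14.

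The probe set of CLC (206207_at) read 0.873, 0.133 and 1.04 in sensitive replicates 1 to 3 and 20.05, 14.6 and 14 in resistant replicates 1 to 3. All resistant arrays stood above all sensitive arrays, the lowest of them 13.4 times over the highest sensitive one. The means were 0.682 ± 0.482 and 16.2 ± 3.34 (SD, n = 3 each), a ratio of 23.8 and a log2 difference of 5.02. In such bulk RNA, more cells with the transcript and more transcript per cell cannot be told apart, here as for the other genes. Before scaling, the MAS5 signals were 12.4, 2 and 16 in sensitive and 266.6, 234 and 235.8 in resistant arrays, so the sensitive values lay near or under the array medians and the resistant ones far above them. On the log2 scale the resistant arrays had an SD of 0.28 and the sensitive ones of 1.64, which is mainly the low sensitive replicate 2. Without that array the log2 difference was 4.07, the lowest of the 6 values obtained by leaving out an array.

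The probe set of LGALS14 (220158_at) read 0.782, 0.853 and 0.110 in sensitive arrays and 0.504, 0.144 and 0.722 in resistant arrays. All values lay under the array median and the groups overlapped, with a log2 difference of -0.16 that ranged from -1.13 to 0.52 when an array was left out. LGALS13 gave the same picture, with 0.887, 0.333 and 0.643 in sensitive and 0.940, 0.119 and 0.160 in resistant arrays. Neither of these cluster relatives separated the groups, while CLC, which was chosen for its gain, did. LGALS16 was not analysed here.

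The brighter of both CD37 probe sets (204192_at) read 0.0563, 0.0800 and 0.214 in sensitive arrays and 4.59, 2.49 and 3.36 in resistant arrays. The groups did not overlap, and the lowest resistant value was 11.6 times the highest sensitive one. The means were 0.117 ± 0.0852 and 3.48 ± 1.06 (SD, n = 3 each), a ratio of 29.8 and a log2 difference of 5.09. The MAS5 signals behind them were 0.8, 1.2 and 3.3 and then 61.1, 39.8 and 56.7. The sensitive signals are a small fraction of the array median, and the size of the ratio rests on them.

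The other CD37 probe set (238321_at) read 0.486, 0.647 and 0.130 in sensitive arrays and 0.827, 0.625 and 0.710 in resistant arrays. Its groups overlapped, since resistant replicate 2 lay under sensitive replicate 2, and no array reached the median. Its log2 difference was 1.06. Of the 2 probe sets of CD37, 1 separated the groups and 1 did not.

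CD53, the pan-leukocyte relative, read 0.979, 2.13 and 0.896 in sensitive arrays and 2.41, 1.29 and 1.21 in resistant arrays at its brightest probe set (203416_at). The groups overlapped, with a log2 difference of 0.34. Its other probe sets, 242946_at and 237606_at, stayed between 0.0333 and 0.325 in all arrays, overlapped between groups and had log2 differences of -0.57 and -0.29. No CD53 probe set showed the pattern of CD37.

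SOX8 was measured by 1 probe set (226913_s_at), whose suffix marks probes that can match more than 1 transcript. It read 0.0634, 0.120 and 0.149 in sensitive arrays and 2.83, 1.33 and 3.12 in resistant arrays. The groups did not overlap, and the lowest resistant value, in replicate 2, was 8.91 times the highest sensitive one. The means were 0.111 ± 0.0437 and 2.43 ± 0.963 (SD, n = 3 each), a ratio of 21.9 and a log2 difference of 4.45. The MAS5 signals were 0.9, 1.8 and 2.3 in sensitive and 37.7, 21.3 and 52.8 in resistant arrays.

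The probe sets of SOX10 were dim throughout. The first (209843_s_at) read 0.613, 0.120 and 0.188 in sensitive and 0.248, 0.244 and 0.118 in resistant arrays, and the second (209842_at) read 0.247, 0.173 and 0.110 and then 0.135, 0.0813 and 0.124. Both overlapped between groups, with log2 differences of -0.32 and -0.60. The remaining SOXE gene, SOX9, was far above the median in all arrays, with 46.1, 49.1 and 41.8 in sensitive and 42.3, 30.4 and 33.9 in resistant arrays. Its log2 fold change was -0.37 (SE 0.15, adjusted p = 0.053 in limma), so it was not called. Its second probe set (202936_s_at) had all resistant arrays below all sensitive arrays and was called lower among all probe sets (-0.40, adjusted p = 0.037). The change was nearly the same at both SOX9 probe sets, and the first had an adjusted p of 0.061 in limma among all probe sets. SOX8, which was chosen for its gain, went from signals under the median to signals above it. SOX9 stayed bright and SOX10 stayed dim.

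**Figure D1:**
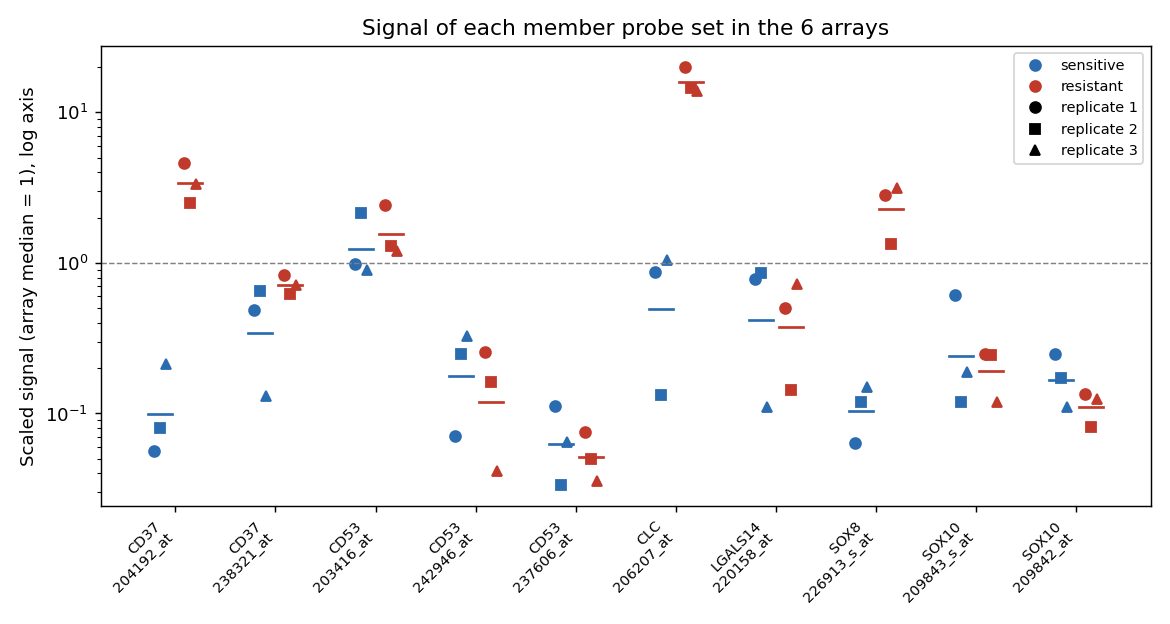
Scaled signal (array median = 1, log axis) of the 10 probe sets of CD37, CD53, CLC, LGALS14, SOX8 and SOX10 in the 3 sensitive (blue) and 3 resistant (red) arrays, with marker shape for the replicate and a bar at the geometric mean of each group. The red markers of 1 CD37 probe set, of CLC and of SOX8 lie above all blue ones of the same probe set and above the dashed array median, while the relatives mix.

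Across the 10 member probe sets, 3 had all resistant arrays above all sensitive arrays, a pattern that 10.4% of all probe sets on the array showed. Because those 3 were selected for it, nothing is read from that share. The filter used for testing required the 6 scaled signals to average 1 or more, and it was passed by 4 of the 10 probe sets, 1 each of CD37, CD53, CLC and SOX8, and CD37, CLC and SOX8 passed it only through their resistant arrays.

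The sizes of the 3 gains depended on how dim signals were handled. When all scaled signals under 1 were set to 1, the log2 differences were 1.75 for CD37, 3.98 for CLC and 1.19 for SOX8, which counts only the rise above the array median. That all resistant arrays lay above all sensitive ones in these 3 probe sets does not rest on a floor. Leaving out each array in turn gave log2 differences of 4.69 to 5.65 for CD37, 4.07 to 5.55 for CLC and 4.09 to 4.83 for SOX8.

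**Figure D2:**
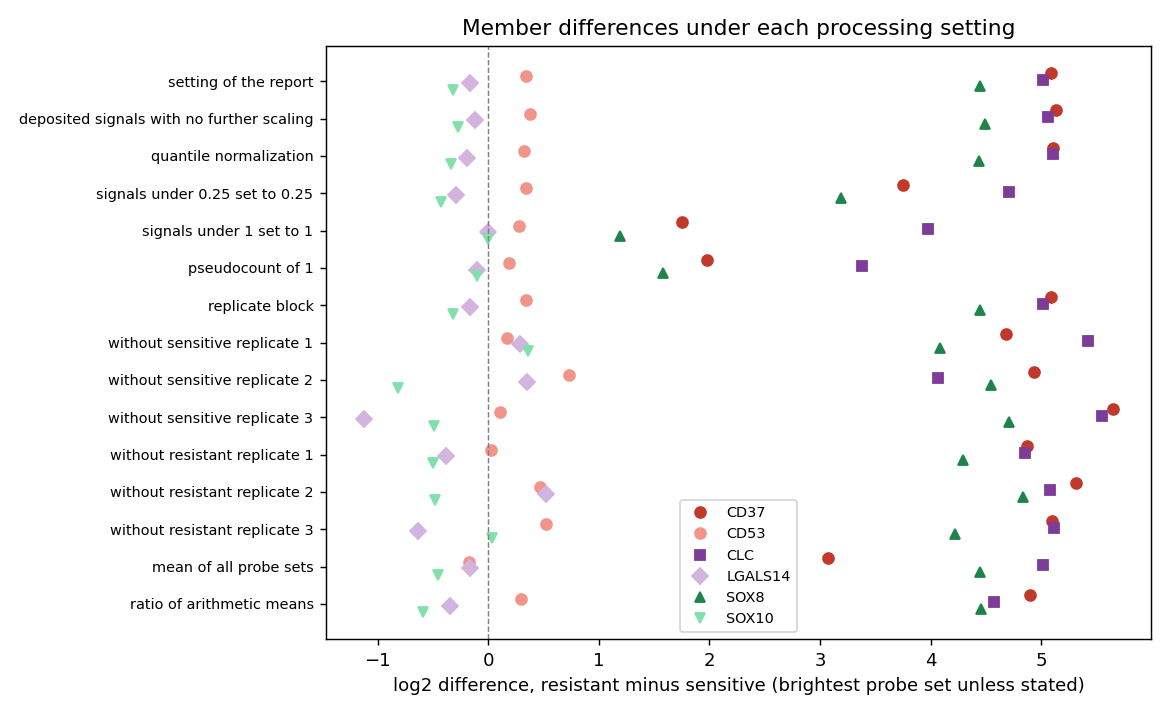
Log2 difference between resistant and sensitive arrays (horizontal axis) for the 6 genes under each processing setting (vertical axis), at the brightest probe set of each gene unless the setting says otherwise. CD37, CLC and SOX8 stay above 1 in all settings drawn, down to 1.19 for SOX8, while CD53, LGALS14 and SOX10 stay between -1.13 and 0.73.

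Whether other genes of the same lineages moved was examined in lists of marker genes, each gene represented by its brightest probe set and tested with limma over all 11835 genes that passed the filter. Of those genes, 12.4% were called higher and 22.5% lower in resistant cells at an adjusted p under 0.05, with a median log2 fold change of -0.10 (0.02 after quantile normalization). In 8 lists of leukocyte, placental, neural crest and gonadal genes, 160 genes had a probe set and 39 were tested. The test called 6 of them higher (15.4%) and 10 lower (25.6%), shares close to those of all genes, with a median log2 fold change of -0.17. The remaining 121 genes were on average under the array median. Only 1 of the 39 rose at least 3-fold, and 3 fell at least 3-fold. With the mean of all probe sets in place of the brightest, the calls were 3 higher and 6 lower.

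Leukocyte genes other than CD37 were mostly dim. Of 23 leukocyte-wide genes with a probe set, 7 were tested, none was called higher and 2 were lower, with no rise at an unadjusted p under 0.05 in limma or in the equal- or unequal-variance test. The 2 that fell were RAC2, a small GTPase of blood cells, from 10.3, 11.7 and 9.92 to 7.45, 7.06 and 4.56 (log2 fold change -0.77, adjusted p = 0.0014 in limma), and CD74, the class II invariant chain (-1.43, adjusted p = 0.028). The call of CD74 was lost in 7 of 16 alternatives, among them without sensitive replicate 1 or 2 or resistant replicate 3. PTPRC, the CD45 antigen, read 0.175 to 0.599 in sensitive and 0.323 to 0.527 in resistant arrays, and ITGB2, the leukocyte integrin chain, 0.0649 to 0.120 and 0.0688 to 0.361, so both defining markers lay under the median in all arrays. The summed scaled signal of the leukocyte-wide list was 57.7 to 70.3 in sensitive and 48 to 59.2 in resistant arrays.

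B cell and T cell markers gave the same counts of rises. Of 20 B cell genes with a probe set, 6 were tested, none was called higher by limma or either other test, also at an unadjusted p under 0.05, and 1 was lower. That gene was POU2AF1, a B cell coactivator, with 7.17, 5.5 and 5.77 in sensitive and 3.09, 2.83 and 1.65 in resistant arrays (log2 fold change -1.33, adjusted p = 2.6e-05 in limma). MS4A1, the CD20 antigen, lay at 0.113 to 0.656 and 0.534 to 0.592 and was not tested. Of 21 T and NK cell genes, 3 were tested and none was called in either direction, also at an unadjusted p under 0.05 by limma and both other tests. CD3E, a chain of the T cell receptor complex, read 0.155, 0.740 and 0.461 in sensitive and 0.248, 1.29 and 0.325 in resistant arrays and overlapped. The summed signals were 19.4 to 24 and 14.4 to 22 for the B cell list and 13.9 to 14.5 and 13.5 to 17.7 for the T and NK cell list.

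Among genes of eosinophils, basophils and mast cells, the cells in which CLC is abundant, 20 had a probe set and 3 were tested. ALOX5, the lipoxygenase that starts leukotriene synthesis, rose from 17.2, 14.9 and 17.1 to 38.7, 32 and 24.6 (log2 fold change 0.93, SE 0.17, adjusted p = 3.1e-05 in limma). GATA2, a blood progenitor factor, fell from 7.46, 6.27 and 7.84 to 4.42, 3.79 and 2.01 (log2 fold change -1.15, adjusted p = 0.00012 in limma), a call lost with its probe sets averaged (-0.28, adjusted p = 0.41). The granule genes were dim. RNASE2, the eosinophil-derived neurotoxin, read 0.169, 0.373 and 0.533 in sensitive and 0.872, 0.788 and 1.01 in resistant arrays, which did not overlap but stayed near or under the array median and did not enter the test. EPX, the eosinophil peroxidase, read 0.507 to 0.675 and 0.0563 to 0.827, and PRG2, the major basic protein, 0.0533 to 0.260 and 0.0563 to 0.188. GATA1, the factor that directs eosinophil fate, overlapped at 0.289, 1.08 and 0.539 against 1.14, 0.781 and 0.112. RNASE3 was not analysed here. The summed signal of the list was 28.7 to 32.7 in sensitive and 33.7 to 51.4 in resistant arrays without overlap. That rise is the rise of ALOX5, its brightest contributor, with means of 16.4 in sensitive and 31.7 in resistant arrays. Without ALOX5 the rest of the list together was lower in all resistant arrays than in all sensitive ones. GATA2 is the brightest gene of that rest.

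Of 11 transcription factors of blood cells tested, 4 were lower (36.4%) and 2 higher (18.2%), against 22.5% and 12.4% of all genes. GATA3, which directs T cells and is also active in epithelia, fell from 4.06, 5.41 and 5.28 to 0.226, 0.606 and 0.308 (log2 fold change -3.81, SE 0.46, adjusted p = 1.2e-08 in limma). MYB, a progenitor factor also active in colon crypts, fell from 38.4, 31.6 and 27.6 to 9.14, 9.42 and 6.46 (-1.97, adjusted p = 8.3e-12). POU2AF1 and GATA2, described above, were the others. BCL6, the germinal centre repressor, rose from 11.9, 11.1 and 9.44 to 27.3, 25.1 and 17.6 (1.09, adjusted p = 4.5e-06), and CEBPA, a myeloid and liver factor, was called higher although its groups overlapped (0.84, adjusted p = 0.0031). BCL6 and CEBPA were named after their values were seen. SPI1, the myeloid and B cell factor PU.1, lay at 0.133 to 0.766 in sensitive and 0.0677 to 0.581 in resistant arrays and was not tested. The summed signals of these factors were 79.1 to 97.1 and 58 to 83.4.

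Placental genes moved in both directions. PEG10, an imprinted gene derived from a retrotransposon, rose from 0.577, 0.0800 and 0.0519 to 2.53, 3.53 and 1.95, with a log2 fold change of 4.27 (SE 0.94, adjusted p = 0.00044 in limma). It was the only tested gene of the other-lineage lists with a rise of 3-fold or more. Like CD37 and SOX8 it rose from signals under the median to signals above it in all 3 resistant arrays, and it passed the filter only through these. Without resistant replicate 2 it was no longer called at its brightest probe set, then another one (log2 fold change 2.26, adjusted p = 0.059). Its log2 fold change was 2.97 with a floor of 0.25, 1.37 with a floor of 1 and 1.57 with a pseudocount of 1, the last 2 of them under 3-fold. HLA-G, the class I molecule of trophoblast, fell from 166, 115 and 142 to 32, 31.7 and 26.9 (log2 fold change -2.21, adjusted p = 6.1e-16 in limma). PAPPA2, a placental protease, fell as well (-1.23, adjusted p = 0.020), at a probe set whose suffix (_x_at) marks possible cross-hybridization. The call of PAPPA2 was lost in 6 of 16 alternatives that included leaving out sensitive replicate 3 or resistant replicate 1. It was also lost with its probe sets averaged (-0.28, adjusted p = 0.67). CGA, the shared chain of the placental hormone, overlapped at 0.331 to 0.655 and 0.496 to 0.953. Some genes that the filter left untested also separated the groups, at signals near or under the array median. Among them CYP19A1 (log2 difference 3.31) and, of the T cell list, CD2 (2.52) rose, while HSD3B1 (-3.64) and PLAC1 (-3.46) fell. These were named after their values were seen. In all 1 gene was called higher and 2 lower of 5 tested among 24 with a probe set, and the summed signal was 127 to 180 in sensitive and 40.3 to 47.2 in resistant arrays. Most of that sum is HLA-G, read at a probe set (211528_x_at) whose suffix marks possible cross-hybridization, and the other 23 genes summed to 12.3 to 14.7 in sensitive and 13.5 to 15.5 in resistant arrays.

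The lists that belong to SOX8 and SOX10 were little populated. Of 21 neural crest, glia and melanocyte genes with a probe set, 5 were tested, 1 was higher and 2 were lower. ERBB3, a neuregulin receptor that epithelia also carry, was higher (log2 fold change 0.40, adjusted p = 0.029 in limma), a call lost in 6 of 16 alternatives and without any 1 of the 3 sensitive replicates. The myelin genes CNP (-0.81, adjusted p = 0.00035) and MBP (-0.57, adjusted p = 0.012) were lower. With probe sets averaged both calls were lost (-0.49, adjusted p = 0.16, and -0.37, adjusted p = 0.41), and that of MBP also without resistant replicate 2 (-0.36, adjusted p = 0.11). OLIG2, the oligodendrocyte factor, lay under the median in all arrays, at 0.104 to 0.553 and 0.0451 to 0.181. The summed signals overlapped at 88.8 to 94.3 and 88.4 to 110. Of 14 Sertoli and gonadal genes, 2 were tested and FGF9, a growth factor of the testis that acts with SOX9, was higher, from 5.51, 5.52 and 7.29 to 11.5, 10.8 and 10.1 (log2 fold change 0.83, SE 0.18, adjusted p = 0.00035 in limma). None was lower, also at an unadjusted p under 0.05 in limma and both other tests. The summed signals were 12 to 13.3 and 16.3 to 18.6 without overlap. By far the brightest contributor is FGF9, with means of 6.11 in sensitive and 10.8 in resistant arrays. Without FGF9 the summed signals of the rest of the list overlapped between groups. AMH was not analysed here.

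**Figure D3:**
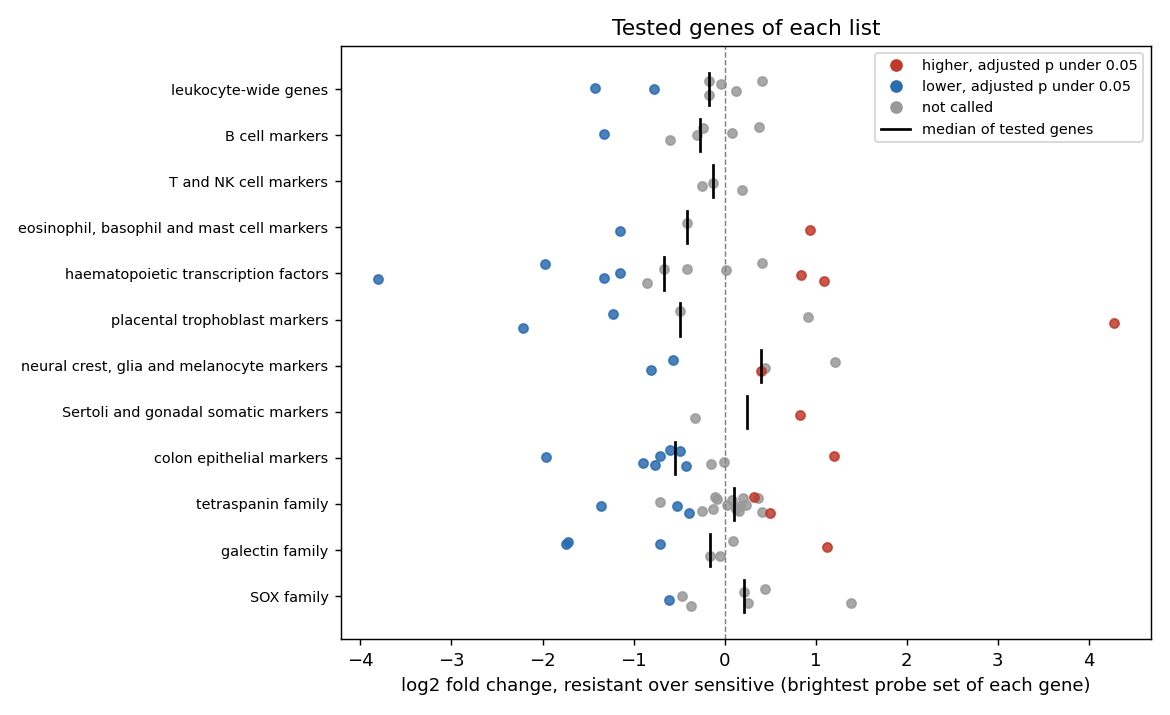
Log2 fold change of resistant over sensitive cells (horizontal axis) of the tested genes of each list (1 point per gene at its brightest probe set, scattered vertically only to separate points), coloured by the limma call at an adjusted p under 0.05, with the median of each list as a black line. PEG10, at 4.27 among the placental genes, is the point farthest to the right, and GATA3, at -3.81, the point farthest to the left.

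The families of the 3 genes were examined in the same way, without the members themselves. Of 56 tetraspanin, galectin and SOX genes with a probe set, 34 were tested. Of these, 3 were called higher (8.82%) and 7 lower (20.6%), against 12.4% and 22.5% of all genes tested. The median log2 fold change of the 34 was 0.05. None rose 3-fold and 2 fell 3-fold. The count of higher calls was 1 without sensitive replicate 3 and 5 without resistant replicate 2, and 8 after quantile normalization.

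Among 20 tetraspanins tested, 2 were higher (10%) and 3 lower (15%), against 12.4% and 22.5% of all genes tested. TSPAN4 rose from 15.3, 12.3 and 12.2 to 19.6, 19.1 and 17.2 (log2 fold change 0.49, adjusted p = 0.019 in limma), and TSPAN13, named after its values were seen, rose by 0.33 (adjusted p = 0.0067). The call of TSPAN4 was lost without sensitive replicate 2 or 3. TSPAN12, a coreceptor of Norrin signalling, fell from 6.41, 4.75 and 5.36 to 1.93, 2.13 and 2.36 (-1.36, adjusted p = 1.5e-05), and TSPAN3 (-0.52, a call lost with its probe sets averaged) and TSPAN8 (-0.39), the latter also named after its values were seen, fell less. No tested tetraspanin rose by a change of the size seen in CD37. TSPAN7, which the filter left untested and which is named after its values were seen, read 0.261, 0.0533 and 0.396 in sensitive and 1.45, 0.875 and 1.63 in resistant arrays without overlap (log2 difference 2.85).

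Among 7 galectins tested, 1 was higher (14.3%) and 3 lower (42.9%), against 12.4% and 22.5% of all genes tested. LGALSL, a galectin-like protein, rose from 5.28, 5.17 and 3.92 to 12.1, 11 and 8.43 (log2 fold change 1.13, adjusted p = 9.8e-06 in limma). LGALS9 (-1.74, adjusted p = 2.2e-07) and the intestinal galectin LGALS2 (-1.72, adjusted p = 8.3e-10) fell, as did LGALS4 (-0.71, adjusted p = 3.9e-06), another intestinal galectin, named after its values were seen. The summed galectin signal, without CLC and LGALS14, was 352 to 406 in sensitive and 251 to 312 in resistant arrays, lower without overlap. Its brightest contributors are LGALS4, with means of 192 in sensitive and 118 in resistant arrays, and LGALS3, with 128.4 and 124.5. LGALS3 was named after its values were seen.

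Among 7 SOX genes tested, none was called higher in limma or either other test. In limma 1 was called lower (14.3%), where 12.4% of all genes tested were higher and 22.5% lower. At an unadjusted p under 0.05, 1 SOX gene rose in limma, 1 in the equal-variance test and 0 in the unequal-variance test. SOX4, a factor of progenitor cells, was the 1 called lower, from 99.8, 94.1 and 101 to 61.7, 62.5 and 68.4 (log2 fold change -0.61, adjusted p = 0.00020 in limma), and all 16 alternatives kept that call. The summed SOX signal without SOX8 and SOX10 was 160 to 167 in sensitive and 112 to 126 in resistant arrays, and SOX4 and SOX9 are its brightest contributors.

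Genes beside the members on the chromosome were taken as the 5 nearest tested genes on each side in the RefSeq gene table, with CLC and LGALS14 sharing theirs, which gave 50 genes. Of these 5 were called higher (10%) and 8 lower (16%), against 12.4% and 22.5% of all genes tested, with a median log2 fold change of -0.18. The counts ranged from 3 to 6 and from 4 to 12 when an array was left out, with 3 higher without resistant replicate 1, and 4 lower without sensitive replicate 1 or resistant replicate 2 and 12 lower without resistant replicate 1.

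The nearest tested genes on both sides of SOX8 were higher in resistant cells. On one side LMF1, a maturation factor of lipases, rose at its brightest probe set from 0.437, 1.39 and 1.03 to 5.15, 3.57 and 4.65 (log2 fold change 2.36, SE 0.36, adjusted p = 1.9e-06 in limma). On the other side SSTR5-AS1, an antisense RNA of a somatostatin receptor gene, rose from 3.56, 3.01 and 2.39 to 12, 8.06 and 7.03 (1.58, SE 0.21, adjusted p = 1.9e-07). Neither gene overlapped between groups at these probe sets. The LMF1 probe set averaged 0.954 in sensitive and 4.455 in resistant arrays, so it passed the filter only through its resistant arrays. The next genes outward were not called on either side.

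LMF1 had 9 probe sets and they disagreed. All resistant arrays lay above all sensitive ones in 3, below them in 1, and the groups overlapped in 5, with log2 differences from -1.60 to 3.60. Another probe set of nearly the same brightness, 1569871_at, read 2.85, 2.79 and 2.02 in sensitive and 2.93, 1.75 and 3.60 in resistant arrays (log2 fold change 0.07, adjusted p = 0.89 over all probe sets). When any 1 of the resistant arrays was left out, that probe set became the brightest and the call of the gene was lost, down to a log2 fold change of -0.16 (adjusted p up to 0.99). With the probe set fixed at 1569872_a_at, an alternative chosen after seeing the data, the call held in all 6 fits that left out an array (log2 fold change 1.88 to 2.71, adjusted p up to 0.0019 over all probe sets). SSTR5-AS1, with 1 probe set, also held in all 6 (1.35 to 1.74, adjusted p up to 0.00045).

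Beside CLC, EID2, an inhibitor of the coactivator EP300, was the nearest tested gene on one side and rose from 13.5, 11.1 and 13.2 to 21.6, 14.8 and 18.8 (log2 fold change 0.53, adjusted p = 0.014 in limma). Its relative EID2B, the next gene and named after its values were seen, rose from 1.29, 0.960 and 1.95 to 3.71, 2.81 and 2.44 (1.13, adjusted p = 0.0074). The first call was lost without sensitive replicate 2 and the second without resistant replicate 1. When fitted over all probe sets, as for LMF1, EID2 was called in 3 of the 6 fits that left out an array (adjusted p up to 0.15) and EID2B in 5 (up to 0.057). On the other side DYRK1B, a protein kinase, overlapped between groups (0.66, adjusted p = 0.30). Of the 10 neighbours, 3 were called lower, namely TIMM50 (-0.45), FBL (-0.27) and PSMC4 (-0.40), named after their values were seen. Their calls were lost in 5, 9 and 7 of 16 alternatives, all 3 without sensitive replicate 1 or resistant replicate 2. These changes were a fraction of the difference of CLC, and LGALS14 lies between EID2 and CLC.

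Beside CD37, neither TRPM4, a cation channel, nor TEAD2, a partner of YAP, was called, with log2 fold changes of -0.01 (adjusted p = 0.99 in limma) and -0.13 (adjusted p = 0.67), and both overlapped between groups. No gene of that locus was called higher, and 2 were called lower, RUVBL2 (-0.59, adjusted p = 0.00029) and SNRNP70 (-0.54, adjusted p = 0.0026), named after their values were seen. With probe sets averaged these 2 turned to 0.19 and 0.30 and were not called (adjusted p up to 0.65). Beside CD53, LAMTOR5-AS1 (1.66, adjusted p = 0.058) and LRIF1 (-0.36, adjusted p = 0.11) were not called. Farther out on the same sides, SLC16A4, a transporter of the monocarboxylate family, fell from 8.55, 8.33 and 7.83 to 0.421, 0.606 and 0.610 (log2 fold change -3.94, adjusted p = 2.3e-13 in limma). CIMAP3 rose from 0.754, 1.26 and 0.357 to 2.79, 4.66 and 2.57 (2.21, adjusted p = 9.2e-05 in limma). With a mean of 0.790 in sensitive arrays, CIMAP3 passed the filter only through its resistant arrays. Beside SOX10, POLR2F, a subunit of RNA polymerase II, fell (-0.99, adjusted p = 4.8e-06), although its other probe set overlapped and the call was lost with both averaged (-0.31, adjusted p = 0.44), and PICK1 was not called (-0.53, adjusted p = 0.36).

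**Figure D4:**
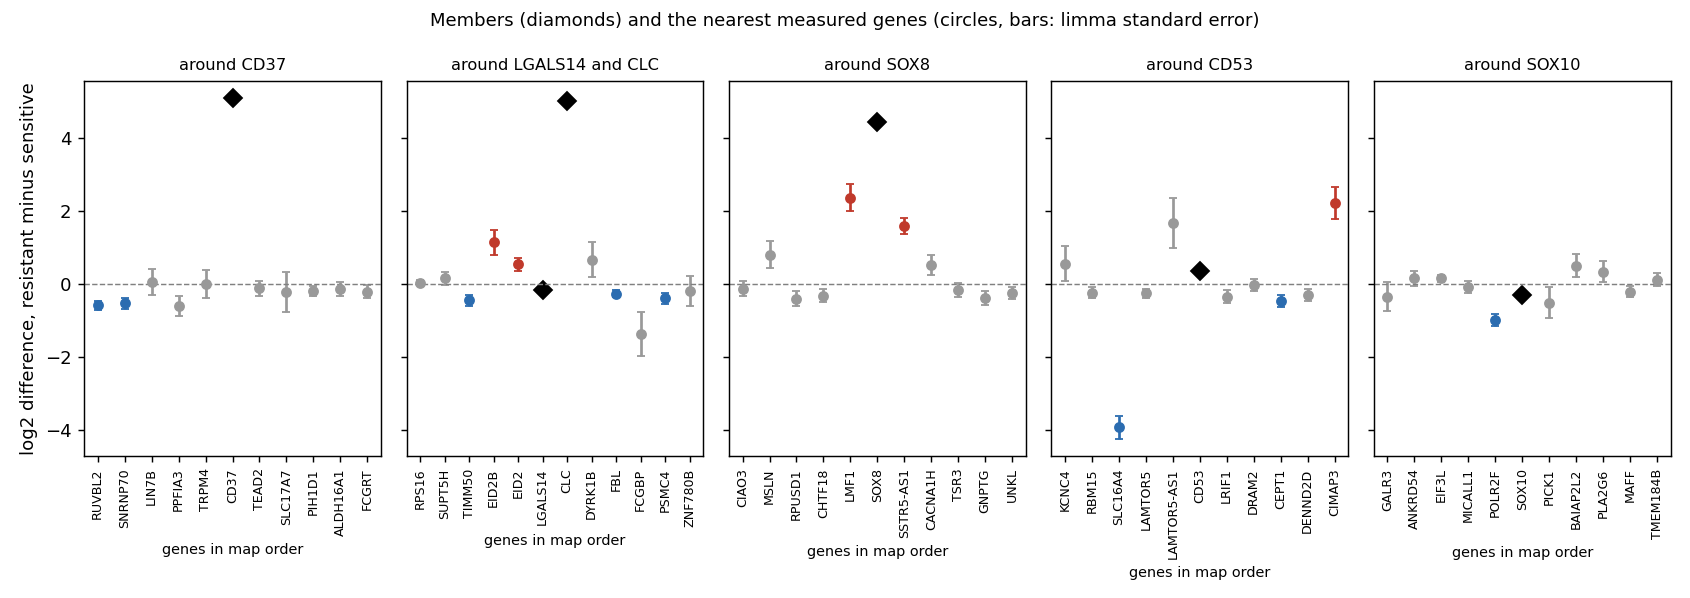
Log2 difference between resistant and sensitive cells (vertical axis) of the members (black diamonds) and of the 5 nearest tested genes on each side in map order (circles with limma standard errors; red called higher, blue called lower, grey not called). SOX8 stands between LMF1 at 2.36 and SSTR5-AS1 at 1.58, while the nearest genes of CD37 lie at -0.01 and -0.13.

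The genes most like each of the 3 gained genes over the 6 arrays were found by Pearson correlation of log2 scaled signals among the other 11834 tested genes. As the arrays fall into 2 groups, many genes that separate the groups correlate highly, and 729 genes exceeded an r of 0.9 for CD37, 679 for CLC and 682 for SOX8. High correlations also follow from the choice of these genes for their gain. The ranking rests in part on sensitive signals far under the array median, for CLC in replicate 2, and is therefore uncertain. For CD37 the closest were ZNF558 (r = 0.998), PCM1 (r = 0.998) and LMBRD2 (r = 0.995). For CLC they were C10orf95-AS1 (r = 0.998), RND1 (r = 0.994) and EIF2AK3-DT (r = 0.993). For SOX8 they were CAPN8 (r = 0.995), PSD3 (r = 0.994) and RESF1 (r = 0.993). Their own changes were smaller than those of the members. PSD3, for example, read 4.32, 4.93 and 5.01 in sensitive and 18.3, 14.8 and 18.9 in resistant arrays (log2 fold change 1.86), and LMBRD2 read 21.5, 22 and 24.5 and then 41.1, 35.5 and 37.2 (0.74).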

How the data were processed

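RNA from 3 sensitive and 3 resistant HT29 samples, grouped by their sample titles, was measured on HG U133 PLUS 2.0 arrays. The deposited values are intensities, the MAS5 signals of single arrays (version not given in the sources used here), without the per-gene normalization the authors applied later. Signals were divided by the array median over 54613 probe sets after removal of 62 controls, raised to at least 0.01 and log2-transformed. Symbols came from the platform annotation and were updated through Entrez identifiers for 41037 of 41091 probe sets that name a single gene. Another 1801 name several genes and 11721 none, and these were not named. The 26833 probe sets whose scaled signals averaged 1 or more were tested with limma 3.58.1 (lmFit, eBayes with trend) in R 4.3.3, resistant against sensitive, with Benjamini-Hochberg adjustment over all of them, and 2554 were called higher and 5237 lower at an adjusted p under 0.05. Genes were tested in the same way by the brightest of the probe sets naming them alone, 11835 in all. The 4 member genes that passed the filter were part of these fits and counts, but no test result is given for any member. The fit was tested on simulated data with known changes. Upstream sequences came from RefSeq (GRCh38.p14) and were aligned with Biopython 1.88. Figures were drawn with matplotlib 3.10.9.

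The members and all gene lists were chosen with earlier results of these data known. The genes named are all members, up to 3 genes of each list with the largest called change and no overlap, the defining markers, the nearest tested neighbours and neighbours called with a 3-fold change, and the 3 genes most correlated with CD37, CLC and SOX8. Others are marked as named after their values were seen. The alternatives were the deposited signals without further scaling, quantile normalization, floors of 0.25 and 1, a pseudocount of 1, no filter, equal- and unequal-variance tests, a replicate block, each array left out, and gene values averaged over probe sets. Precision is limited by the number of arrays.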

Additional observations from a re-analysis of the deposited data

How the results depend on the processing

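The direction of CD37, CLC and SOX8 was kept under all alternatives run. Because these genes were chosen for their gain and their groups lay far apart, that outcome was largely fixed in advance and nothing is read from it. Their log2 differences moved by more than the spread between replicates where dim signals were handled otherwise and, for CD37, where both probe sets were averaged. For CD37 (5.09) it was 3.75 with a floor of 0.25, 1.75 with a floor of 1, 1.98 with a pseudocount of 1 and 3.07 with the mean of both probe sets. For SOX8 (4.45) the first 3 of these settings gave 3.19, 1.19 and 1.58, and for CLC (5.02) the pseudocount gave 3.38.

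Over all probe sets, 4187 were called higher after quantile normalization, 826 in the equal-variance test and 81 in the unequal-variance test, and 1879 and 136 lower in the last 2. Of the other-lineage genes, 1 was called higher and 4 lower in the equal-variance test, 0 and 0 in the unequal-variance test (5 and 6 at an unadjusted p under 0.05), and 3 and 6 with probe sets averaged. Of the family relatives, 5 were called higher without scaling, 8 after quantile normalization, 5 with probe sets averaged, 1 in the equal-variance test and 0 in the unequal-variance test (4 unadjusted), where 1 was called lower. Of the neighbours, 1 was higher and 3 lower in the equal-variance test, 0 and 0 in the unequal-variance test (5 and 9 unadjusted), and 2 lower with probe sets averaged. Leaving out each array gave 1 to 5 higher family relatives, and 3 to 6 higher and 4 to 12 lower neighbours.

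With the replicate number as a block, 5 family relatives were called higher. Deviations of same-numbered arrays from their group means correlated at 0.141, 0.00718 and 0.0791, so the numbers were not taken as pairs. The fold against signals far under the array median is the weakest value here.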
